A study of Mus musculus with 30 samples.

Results

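Acetylation of histone H3 at lysine 9 (H3K9ac) was profiled by chromatin immunoprecipitation and sequencing in N1E115 cells, a mouse neuroblastoma line, at 2 oxygen levels. The 4 libraries described here are those labelled H3K9ac, with 2 at 4% O2 and 2 at 20% O2, out of 30 samples in the series. The other samples are 20 libraries of CTCF, RAD21 and 3 forms of RNA polymerase II, and 6 inputs. All cells carried the label NOS1+ (the neuronal nitric oxide synthase gene) and were kept for 3 days at 4% O2, which the labels call hypoxia, or 20% O2, called normoxia. Each oxygen level has a replicate 1 and a replicate 2, which came from different flow cells, per the file headers, and are called rounds 1 and 2 below. In round 1 the 4% and 20% O2 libraries ran in different lanes, and in round 2 in the same lane. N1E115 is a single tumour line, and the labels do not say whether the libraries of a level came from separate cultures. P-values here thus reflect only how these libraries varied, and that variation may be technical.

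H3K9ac is laid down by acetyltransferases of the GCN5/PCAF and p300/CBP families and removed by histone deacetylases and sirtuins. It marks the nucleosomes that flank the starts of active genes, and also active enhancers. At low oxygen the prolyl hydroxylases that mark HIF alpha subunits for destruction slow down, and HIF dimers bind short sites in the promoters of genes for glycolysis, mitophagy and blood vessel growth. Several histone demethylases use oxygen as a co-substrate too, so chromatin is one of the places where oxygen is sensed.

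The deposited lists give peaks and a caller score for each library. The score is a −log10 q-value and depends on depth, so it was used only as a percentile rank within a library, from 0 for the lowest to 100 for the highest of the regions called in all 4 lists. A difference in rank is given in points, 4% minus 20% O2 within a round. At gene starts, genes were called shifted when the rank differed by at least 10 points in the same direction in both rounds, which is a rule of size and not a test. Whether the levels overlapped is given only to describe the region or gene named. The share of all regions or gene starts without overlap is not given, and picking by differences in both rounds favours such separation. Coordinates are mm10. Read depth was not known from the lists, and no counting interval was computed.

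Promoters of 5 genes whose start region ranked higher at 4% O2 in both rounds are shown with 1 that ranked lower, to show how the short core that HIF dimers are known to bind is spread among them. They are examples, and the choice does not stand for all shifted genes. Each is the 250 bases before the start that the RefSeq promoter table of GRCm38.p6 gives for the gene, 5′ to 3′ on its strand. For Pkm and Aldoc, and for Pdk1 named below, the window lies inside the annotated gene. These genes begin upstream of it, at chr9:59656576, chr11:78323073 and chr2:71873215, so matches before the annotated gene were not counted for them. Capitals mark every ACGTG and GCGTG on either strand, so CACGT and CACGC are matches on the other strand, and a palindromic CACGTG counts on both. Bnip3 encodes a mitophagy receptor, Egln3 a HIF prolyl hydroxylase, Pkm pyruvate kinase, Aldoc an aldolase, Pgm1 a phosphoglucomutase, and Hif1an the asparaginyl hydroxylase that blocks the HIF activation domain.
Bnip3 (chr7:138909507-138909756, minus strand): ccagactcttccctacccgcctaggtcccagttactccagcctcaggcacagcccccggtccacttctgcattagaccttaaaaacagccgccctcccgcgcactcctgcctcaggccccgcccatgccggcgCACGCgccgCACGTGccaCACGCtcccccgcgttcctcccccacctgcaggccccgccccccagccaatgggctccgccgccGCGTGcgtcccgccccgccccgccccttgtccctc
Egln3 (chr12:54203875-54204124, minus strand): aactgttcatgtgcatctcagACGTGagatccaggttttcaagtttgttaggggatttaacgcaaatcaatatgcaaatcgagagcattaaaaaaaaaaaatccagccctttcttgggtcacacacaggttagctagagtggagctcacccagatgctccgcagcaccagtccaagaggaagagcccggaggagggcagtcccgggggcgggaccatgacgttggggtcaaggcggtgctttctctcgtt
Pkm (chr9:59656977-59657226, plus strand): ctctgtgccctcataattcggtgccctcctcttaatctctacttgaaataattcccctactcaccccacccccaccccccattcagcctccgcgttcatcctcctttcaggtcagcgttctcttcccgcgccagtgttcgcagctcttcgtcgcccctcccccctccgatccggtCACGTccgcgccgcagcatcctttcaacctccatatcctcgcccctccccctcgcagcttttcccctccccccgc
Aldoc (chr11:78323948-78324197, plus strand): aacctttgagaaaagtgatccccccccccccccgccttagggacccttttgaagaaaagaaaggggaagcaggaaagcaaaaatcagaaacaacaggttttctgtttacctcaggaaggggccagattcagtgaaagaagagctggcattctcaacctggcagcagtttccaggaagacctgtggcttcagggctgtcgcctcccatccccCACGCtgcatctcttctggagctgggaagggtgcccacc
Pgm1 (chr4:99929201-99929450, plus strand): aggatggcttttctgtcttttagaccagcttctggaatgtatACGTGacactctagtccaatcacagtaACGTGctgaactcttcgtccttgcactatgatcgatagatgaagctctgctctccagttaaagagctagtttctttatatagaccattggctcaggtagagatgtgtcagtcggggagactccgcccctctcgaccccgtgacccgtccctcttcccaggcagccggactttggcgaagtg
Hif1an (chr19:44562604-44562853, plus strand): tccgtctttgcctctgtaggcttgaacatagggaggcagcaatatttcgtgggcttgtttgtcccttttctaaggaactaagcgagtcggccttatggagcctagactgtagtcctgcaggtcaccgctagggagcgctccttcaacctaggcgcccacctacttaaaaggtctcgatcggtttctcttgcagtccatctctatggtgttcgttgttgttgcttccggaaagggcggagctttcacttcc

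In these windows Bnip3 had 2 ACGTG and 3 GCGTG matches, Pgm1 had 2 ACGTG, Egln3 and Pkm had 1 ACGTG each, Aldoc had 1 GCGTG and no ACGTG, and Hif1an had neither. Ccng2, with 1 GCGTG, Hif3a, with 2, and Pdk1, with 0 of either, also ranked higher at 4% O2 and held no ACGTG in the window. Of the 6 shifted HIF targets with a promoter in the table, 3 held an ACGTG and 3 a GCGTG. These are matches of letters and not measured binding sites. Of 17491 genes with a promoter in the table, 17.6% held an ACGTG and 34.0% a GCGTG. Of the 53 HIF targets with a promoter, 25 (47.2%) held an ACGTG and 33 (62.3%) a GCGTG. Among genes whose start carried H3K9ac in all 4 lists the shares were 22.3% and 48.5%, against 12% and 16.4% at starts with no H3K9ac region. Genes shifted higher at 4% O2 held an ACGTG in 22.0% and those shifted lower in 24% of promoters, so both lay near the share of all acetylated starts. CpG content separated acetylated from other starts: the median promoter had 17 CpG dinucleotides where H3K9ac was called in all 4 lists and 2 where it was not called at all. The median was 16 in both directions of shift.

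Peaks numbered 79516 at 4% against 71857 at 20% O2 in round 1, and 92649 against 84395 in round 2. The covered length was 52.5 and 76.2 Mb at 4% O2 and 50.01 and 67.4 Mb at 20% O2. Both were larger at 4% O2 within each round, while the libraries of the 2 levels overlapped, and the ratio of covered length was 0.895 without 4% O2 replicate 2 and 0.955 without 20% O2 replicate 1 (exact permutation p = 0.667 for each, two-sided, n = 2 per level; with 2 against 2 no p under 0.05 is possible). The 20% O2 library of round 1 had the shortest list and the highest median score, 17.1 against 9.97, 10.9 and 11.9 in the others. Lists of the same round shared more sequence than lists of the same level, with Jaccard indices of 0.622 and 0.688 against 0.537 at 4% and 0.538 at 20% O2. All 12 of the neuroblast and sympathetic neuron markers, Th among them, had H3K9ac at the start in each library. Endothelial markers had none of 8, macrophage markers 1 of 10 in each library, fibroblast markers 2 to 3 of 10, astrocyte markers 2 to 3 of 8, and oligodendrocyte and Schwann cell markers 3 to 5 of 10.

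Nos1, the gene behind the NOS1+ label, had no H3K9ac peak at its start in any of the 4 libraries. Inside the gene (chr5:117866839-117958840), the 4% O2 library of round 2 had 2 peaks with 380 bp in all and a top score of 6.07, and the other 3 libraries had none. Polymerase phosphorylated at serine 2, the elongating form, was called over 68792 and 97797 bp of Nos1 and its flanks at 4% O2 and over 44189 and 99998 bp at 20% O2. Total polymerase was called over only 5399 and 0 bp at 4% O2 and 0 and 4999 bp at 20% O2. The form phosphorylated at serine 5 covered 42192 and 10196 bp at 4% O2 and 32591 and 67995 bp at 20% O2. Its islands at the start numbered 0 in each library. All these polymerase islands can reach past the gene's ends.

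Merging the 4 lists gave 104182 regions, of which 39931 (38.3%) were in all 4 lists and 38213 in 1 list alone. Regions found in both 4% O2 libraries and in neither 20% O2 library numbered 1721, or 1.65% of all, and the converse 1071, or 1.03%. Among the 50000 highest peaks of each library the order turned, with 779 regions for 4% and 1024 for 20% O2. Leaving out any 1 library raised both counts by over 1.5 times (3608 to 20468 and 2167 to 10213). A rise was built in, because fewer lists then had to hold or lack a region. Regions found only in both round 2 libraries were more numerous than either, at 9053, and those only in both round 1 libraries numbered 3152. The oxygen-specific regions were short, with a median width of 395 bp at 4% and 393 bp at 20% O2, against 1402 bp for regions in all 4 lists. They were also weak: the median of the lower of a region's 2 scores was 4.85 for 4% O2 and 5.87 for 20% O2, while the median score of regions in all 4 lists was 16.8 to 31.7 by library.

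The 2 classes of oxygen-specific region differed in place. Of the 4% O2 regions, 60.9% lay inside genes away from a start, 31.1% outside genes and 7.96% within 1 kb of a start. Of the 20% O2 regions, 42.5% lay inside genes, 52.0% outside and 5.51% at a start. Of all merged regions 44.4% lay inside genes and 34.9% outside, so the 20% O2 class was near this share inside genes and above it outside. The 4% O2 class was above it inside genes, as were regions found only in round 2 (56.8%) and in 1 list alone (58.6%). A high share inside genes was thus not particular to 4% O2. Initiating polymerase (POLR2S5, phosphorylated at serine 5) was called over 57.6 and 57.9% of the 4% O2 regions in the 4% O2 libraries, and over 26.7 and 54.2% in the 20% O2 libraries. Over the 20% O2 regions these shares were 22.2 and 22.1%, and 14.1 and 30.6%. The POLR2S5 lists thus overlapped the 4% O2 regions more often than the 20% O2 regions in each of the 4 libraries, those from 20% O2 included. Over all merged regions the shares were 57.6, 60.2, 36.7 and 61.4% in the same order of libraries, so the 4% O2 class lay at or below them and the 20% O2 class well below. CTCF, the insulator protein, overlapped 16.9 to 20.1% of the 4% O2 regions and 27.6 to 28.3% of the 20% O2 regions, against 24.9 to 27.9% of all. All merged regions include the wider ones in all 4 lists, so width differs in both comparisons with all regions. Regions only in both round 1 lists (median width 479 bp) had CTCF at 12.6 to 14.6% and POLR2S5 at 14.1 to 36.6%. Those only in both round 2 lists (482 bp) had 19.6 to 24.1% and 34.8 to 62.1%. For CTCF, regions in 1 list alone (236 bp) gave 13.4 to 16.5% and the remaining patterns (589 bp) 26.2 to 28.3%. Regions of 1 library are not independent, so these shares are given without a test.

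**Figure D1:**
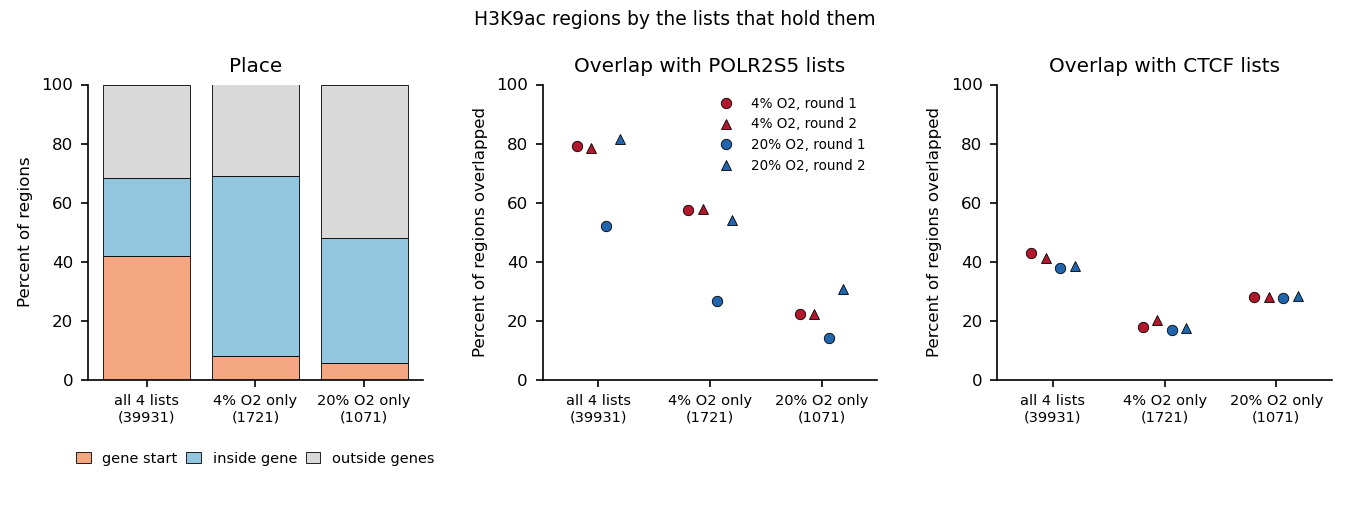
H3K9ac regions in all 4 lists, in both 4% O2 lists only and in both 20% O2 lists only: share by place (left), and share overlapped by the lists of initiating polymerase (middle) and CTCF (right), 1 point per library of that antibody. Inside-gene regions make up 60.9% of the 4% O2 class and outside-gene regions 52.0% of the 20% O2 class, and each POLR2S5 library overlaps more of the former class.

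Regions are named here by the lower of their 2 scores, the 5 strongest of each class at starts and away from them. At 4% O2 the 3 strongest away from starts lay inside Spg7, a mitochondrial protease gene (chr8:123071093-123071354, scores 17.9 and 18.1), inside Rabac1 (chr7:24970865-24971404, 14.9 and 18.7) and inside Fbxo31 (chr8:121572778-121573358, 13.7 and 16.7). POLR2S5 was called over these in 3, 4 and 3 of 4 libraries and CTCF in 0, 4 and 3. The other two were outside genes, at chr1:181272630-181272994 (POLR2S5 in 1 and CTCF in 4 of 4 libraries) and chr4:137991375-137991700 (4 and 3 of 4). Those at starts belonged to Zfp879, Hint2, Podxl, Lrp2bp and Kifc1. At 20% O2 the first away from starts was intergenic at chr6:12125579-12125917, with scores of 54.1 and 24.2, and the next was chr15:59905484-59906008 with 66.0 and 22.1. Both were overlapped by CTCF in 4 of 4 libraries and by POLR2S5 in 0 of 4. Of the 5 strongest away from starts, 4 had no POLR2S5 call in any library, the exception being a region inside Foxp4, and all 5 had CTCF calls, in 2 to 4 libraries. CTCF calls were thus frequent at the strongest regions away from starts in both classes. The 20% O2 regions at starts belonged to Dhx16 (scores 23.3 and 25.8), Foxo4 with Gm614, Rbmx2, 4930430F08Rik and Prkci, of which Foxo4 and Rbmx2 are X-linked. Of these, the Dhx16 region had CTCF calls in 4 libraries and the rest in 0. The 4% O2 regions at starts had them in 0, 3, 4, 1 and 3 libraries, in the order named.

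Among the 39931 shared regions, ranks correlated at 0.72 and 0.866 (Spearman) between the oxygen levels of rounds 1 and 2, and at 0.662 and 0.599 between the rounds at 4% and 20% O2. The difference between oxygen levels in round 1 correlated at 0.146 (Pearson) with that in round 2, as a description across regions that share their libraries. Ranks were 10 points or more higher at 4% O2 in both rounds at 3516 regions (8.81%), lower in both at 3458 (8.66%), and moved by that much in opposite directions at 4541. In limma without a round term, no region had an adjusted p under 0.05 (0.0% called; 609 regions had an unadjusted p under 0.05). This fit also found none of the shifts planted in simulated ranks. There, fresh noise was added on top of the observed round differences, so the spread between rounds was wider than in the data. No conclusion about whether regions differed is drawn from the lack of calls in this fit. With round as a block, 14 regions were called higher at 4% O2 (0.0351%) and 19 lower (0.0476%), and 3682 had an unadjusted p under 0.05. Neither fit called a member of any gene list below at its highest-ranked start region.

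**Figure D2:**
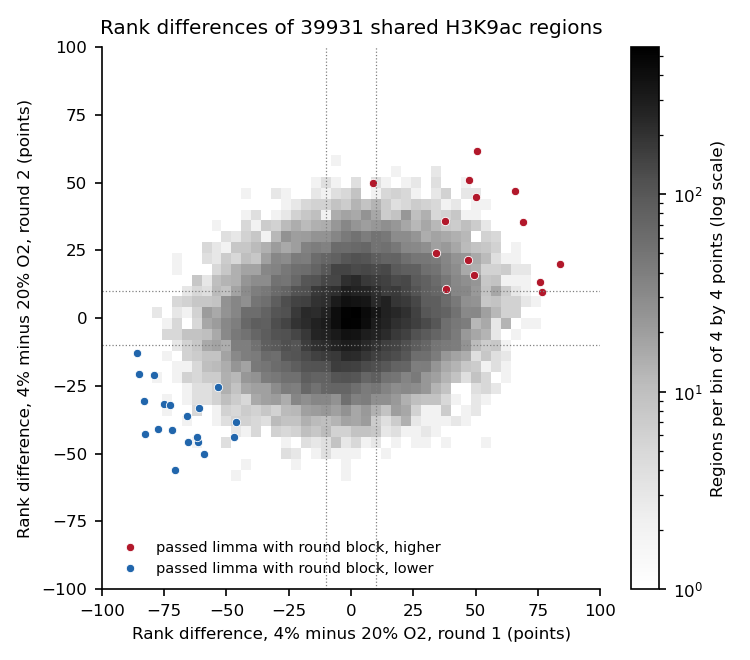
Rank difference between 4% and 20% O2 in round 1 (x axis) and round 2 (y axis), in percentile points, for the 39931 shared regions in bins of 4 by 4 points; dotted lines mark 10 points, and coloured points are the 14 higher and 19 lower regions that passed limma with round as a block. The cloud is wider along round 1, and the passing regions lie at its lower left and upper right edges.

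By place, of the 19 with a lower H3K9ac rank at 4% O2, 16 lay outside genes, 3 inside genes and 0 at a start, while 7 of the 14 with a higher rank lay at a start and 5 outside genes. Of all shared regions 42.0% lay at starts and 31.8% outside genes, so the place of the 14 was near that of all. The intragenic 3 were in Samd5, Auts2, a neurodevelopmental gene, and Stpg1. The Samd5 region (chr10:9503967-9506030) had ranks of 19.2 and 13.4 at 4% O2 and 89.8 and 69.4 at 20% O2, and did not overlap between levels (limma with block, adjusted p = 0.0126). The Auts2 region (chr5:131915560-131917213) had 1.1 and 0.8 against 86.1 and 21.6 (limma with block, adjusted p = 0.00397). All 33 regions had an adjusted p of 1.0 in limma without the block. They were singled out after their values were seen.

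On the higher side, Cdc42bpa, which encodes a kinase acting on the actomyosin cytoskeleton, had a region at its start (chr1:179961542-179963781) with ranks of 98.3 and 98.6 at 4% O2 and 60.5 and 62.7 at 20% O2 (limma with block, adjusted p = 0.0126). A region near the start of Uvrag, an autophagy and endosome regulator, had 68.9 and 64.2 against 3.1 and 17.3 (chr7:99141555-99142958, limma with block, adjusted p = 0.0361). In both regions the 2 levels did not overlap, and the 4% O2 libraries were close to each other. Shisa5 (99.1 and 99.0 against 22.6 and 89.4) and Zfand2a, a gene of the proteasome stress response (49.8 and 94.0 against 0.4 and 78.2), rested more on round 1, and the levels of Zfand2a overlapped. A region inside Fosb, an immediate early transcription factor gene, ranked 97.7 and 99.7 at 4% O2 and 50.7 and 78.4 at 20% O2 (chr7:19306930-19308630, limma with block, adjusted p = 0.00533). The start of Fosb itself had 70.0 and 63.0 against 57.3 and 32.8, in the same order but not past the test. Starts of 9030025P20Rik, of Hdgfl2 with Ubxn6 and of Acyp1 with Zc2hc1c complete the 7. Only 2 genes were called at their start region of highest mean rank, which stands for a gene elsewhere in this text. For most genes named at these 7 starts, the called region is thus another one near the start.

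Of 21883 protein-coding genes, 11437 (52.3%) had a start region in all 4 lists. Of these, 797 (6.97%) were shifted higher at 4% O2 and 821 (7.18%) lower, and 1197 moved by 10 points or more in opposite directions. These shares are the background for the gene groups that follow. Members of each group are described by their counts and medians, with no test of the group.

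HIF targets, the genes switched on through HIF at low oxygen, ranked higher at 4% O2 more often than lower. Of 65 targets in 4 lists, 52 had a start region in all 4 libraries, 7 (13.5%, against 6.97% of all genes) were shifted higher and 0 lower (against 7.18%). With no minimum size, 30 were higher in both rounds and 6 lower, where all genes gave 3048 and 3028. The median difference was 6.2 points in round 1 and 3.62 in round 2, against 1.52 and −0.99 for all genes. The median rank of the 52 was 79.1 and 88.7 at 4% O2 and 68.4 and 86.4 at 20% O2, so that round 1 carried most of the distance.

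The mitophagy and survival list held the largest differences among HIF targets. Cox4i2, the oxygen-regulated isoform of a cytochrome c oxidase subunit, had ranks of 55.9 and 66.3 at 4% O2 and 21.3 and 3.5 at 20% O2. Ccng2, a cyclin that restrains the cell cycle, had 75.9 and 81.1 against 35.5 and 42.2. Bnip3 had 77.2 and 92.9 against 46.5 and 67.5 in the region that begins at its start and runs into the gene (chr7:138905725-138909489), with none of the promoter printed above inside it. Its mean difference of 28.0 points was 13.9 by the summed score. In all 3 genes both 4% O2 libraries lay above both 20% O2 libraries. In the fit with the round block, the differences in normal score were 1.59 ± 0.42 for Cox4i2, 1.08 ± 0.39 for Ccng2 and 0.92 ± 0.39 for Bnip3 (SE; limma adjusted p = 0.104, 0.313 and 0.425), and none passed. For Cox4i2 the strand was not in the tables used, so its region lies at the start or the end of the gene.

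The glycolytic list was shifted higher in 3 of 22 genes and lower in 0. Aldoc, the aldolase of neural tissue, had 60.8 and 65.9 at 4% O2 and 23.4 and 32.8 at 20% O2. Pkm had 91.2 and 94.0 against 81.1 and 73.8, over a region that holds the whole window printed above. Pgm1 had 43.4 and 83.4 against 27.1 and 62.3, and here the levels overlapped because round 2 ranked higher at both. Slc2a1, the main glucose transporter, had 38.8 and 47.9 against 2.6 and 43.7, with nearly all of its rank difference in round 1. Its mean difference of 20.3 points was 30.9 by the summed score. Hk2, the inducible hexokinase, had 83.5 and 88.7 against 69.2 and 84.3, and Ldha 98.7 and 96.8 against 93.0 and 92.5. Ldha, lactate dehydrogenase A, was near the top of the scale in each library and had little room to differ. Pdk1, which keeps pyruvate out of mitochondria, was the 1 shifted gene among 7 of the pyruvate and lactate list, with 52.6 and 78.1 against 8.8 and 63.0.

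Of the secreted HIF targets, with 10 of 20 genes measured, 0 were shifted by 10 points or more in either direction. With no minimum size 7 were higher and 1 lower in both rounds, and the medians were 5.16 and 5.77 points. Vegfa, the vascular growth factor, had 99.6 and 97.8 against 94.6 and 97.0. Adm, adrenomedullin, had 30.5 and 87.2 against 24.8 and 52.9, mostly apart in round 2. The transferrin receptor gene Tfrc ranked lower at 4% O2 in both rounds, with 30.3 and 84.2 against 65.6 and 86.5.

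The HIF pathway's own parts were mixed. Of 11 subunit and sensor genes measured, 2 were shifted higher and 1 lower. Egln3 had 65.6 and 78.3 at 4% O2 and 19.8 and 58.2 at 20% O2, with no overlap of levels. Hif3a, an alpha subunit whose short forms restrain the others, had 31.9 and 67.2 against 7.3 and 32.8. Its levels overlapped slightly across rounds. Hif1an had 65.3 and 49.7 against 85.8 and 66.6, with the 4% O2 libraries below. Hif1a had 56.8 and 76.8 against 53.8 and 91.6, and Arnt, its partner, differed by 25.2 and −13.7 points, so both changed sign between rounds. Egln1, the main prolyl hydroxylase, had 86.9 and 89.9 against 98.9 and 91.4. The list's median was 8.2 points in round 1 and −5.13 in round 2.

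**Figure D3:**
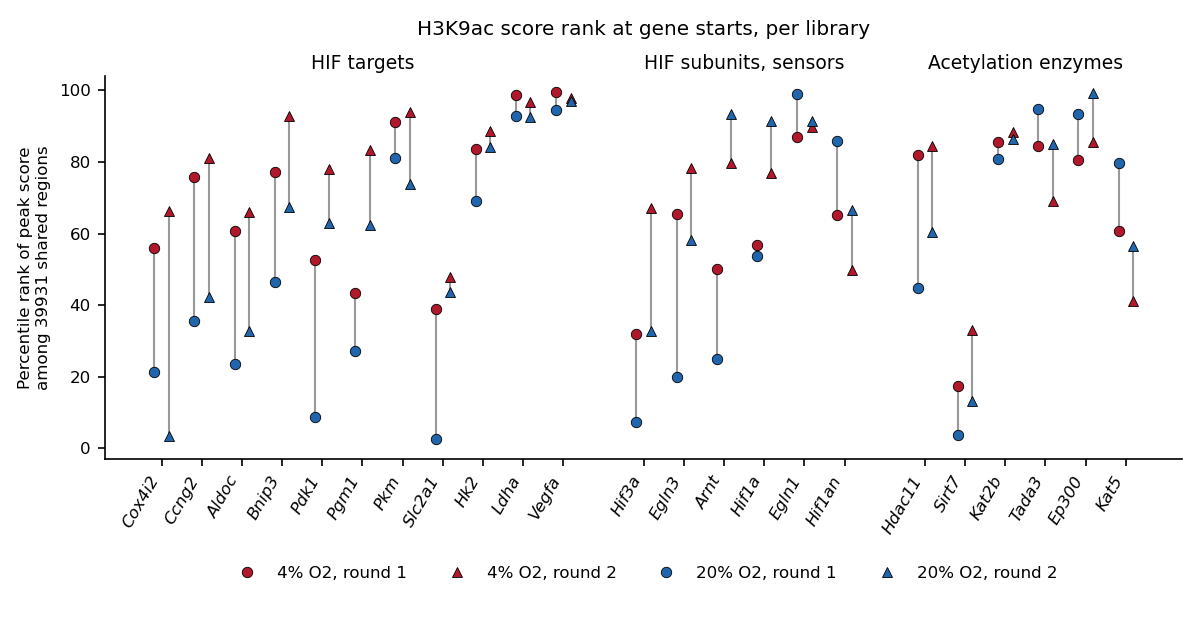
Percentile rank of the H3K9ac score at gene starts in each library, for HIF targets, HIF subunits and sensors, and enzymes of H3K9 acetylation; red is 4% O2, blue 20% O2, circles round 1, triangles round 2, and grey lines join the levels of a round. For Cox4i2, Ccng2, Aldoc and Bnip3 both red points lie above both blue points, while Arnt and Hif1a change order between rounds.

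The enzymes of H3K9 acetylation showed a small offset toward lower ranks among writers. Of 20 acetyltransferases and partners, 0 were shifted higher and 3 (15%) lower, with medians of −1.85 and −4.9 points. Ep300, the p300 acetyltransferase, had 80.7 and 85.6 at 4% O2 and 93.4 and 99.2 at 20% O2, without overlap, and a mean difference of −13.2 points that was −7.68 by the summed score. Tada3, an adaptor of GCN5 and PCAF complexes, had 84.5 and 69.2 against 94.7 and 85.1. The third was Kat5 (TIP60), with 60.7 and 41.1 against 79.8 and 56.5. By the summed instead of the highest score Kat5 was 12.2 points higher at 4% O2 on average, so its direction depends on the measure. Kat2b, encoding PCAF, had 85.7 and 88.5 against 80.8 and 86.5, and Crebbp differed by 17.6 and −5.3 points.

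Of 20 erasers, 2 were shifted higher and 0 lower. Sirt7, a nuclear deacetylase of histone H3, had 17.5 and 32.9 against 3.7 and 13.3. Hdac11 had 82.1 and 84.6 against 44.9 and 60.3, but its mean difference by the summed score was −1.87 points. Hdac1 had 22.4 and 76.0 against 41.3 and 80.6, and Sirt6 56.7 and 94.8 against 86.5 and 95.4 (mean −15.2 points, −3 by the summed score). Of 13 readers, 0 were shifted higher and 2 lower, Mllt1 (6.3 and 67.1 against 16.7 and 93.2) and Phip (71.2 and 24.7 against 89.6 and 52.4). Mllt1 encodes ENL, which binds acetylated H3 through its YEATS domain. Among 20 measured jumonji demethylases, the oxygen-dependent enzymes, 0 were shifted higher and 3 lower: Kdm4d, Phf8 and Riox2. The list as a whole was balanced. With no minimum size 8 were higher and 9 lower in both rounds, and the medians were −0.3 and −0.65 points. Phf8, which is X-linked, had 18.3 and 76.2 against 71.2 and 92.6, and Kdm4d 73.1 and 31 against 92.3 and 67.8.

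Ribosomal protein genes, among the most transcribed genes of growing cells, ranked lower at 4% O2 more often than higher. All 36 cytosolic ribosomal protein genes on the list had a shared start region, and 5 (13.9%) were shifted lower and 0 higher. With no minimum size 17 were lower and 2 higher in both rounds. The medians were −3.67 and −7.53 points. Rps7 had 25.2 and 66.5 at 4% O2 and 55.7 and 97.8 at 20% O2, Rpl27 58.9 and 54.3 against 82.1 and 95.1, and Rpl11 27.8 and 65.2 against 44.8 and 95.8. Only Rpl27 of these 3 kept its levels apart across rounds. By the summed score the mean differences were smaller for Rpl11 (−6.63 instead of −23.8 points) and Rps4x (−7.20 instead of −26.7). Rps4x and Rpl10, the other two, are on chromosome X. Nuclear genes of oxidative phosphorylation gave 0 higher and 1 lower of 33, the latter Atp5h with 40.0 and 75.1 against 86.5 and 93.1.

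In acetyl-CoA supply, 1 of 19 genes was shifted higher and 3 lower. Idh1, the cytosolic isocitrate dehydrogenase, had 94.5 and 83 at 4% O2 and 83.6 and 69.7 at 20% O2. Aco1, an aconitase that also acts as an iron sensor, had 61.0 and 41.4 against 95.5 and 66.3. Both subunit genes of the pyruvate dehydrogenase complex that shifted did so downward, Dlat with 54.7 and 55 against 76.0 and 65.3 and Pdhb with 73.4 and 52.5 against 84.4 and 67.8. In cholesterol metabolism 3 of 22 were shifted higher and 0 lower, among them Mvd, of the mevalonate pathway, with 85.7 and 79.6 against 74.2 and 62.9. The list's medians, 9.5 and −0.7 points, had opposite signs in the 2 rounds.

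Neural identity genes differed little. Of 18 neuroblastoma transcription factor and driver genes, 1 was shifted higher, Gata2, with 85.1 and 78.6 against 72.2 and 64.3. Its mean difference of 13.6 points was 1.78 by the summed score. None of 13 catecholamine and acetylcholine genes and none of 18 neuronal structure genes was shifted. Dbh, the enzyme that makes noradrenaline, had 31.1 and 90.7 against 42.6 and 98.2, and Th, tyrosine hydroxylase, 63.7 and 96.9 against 46.0 and 95.7. Both thus differed far more between rounds than between oxygen levels. Of 19 synaptic vesicle genes 2 (10.5%) were shifted higher and 0 lower. The 2 were Sv2a (83.7 and 74.2 against 41.4 and 58.9) and Unc13a, whose mean difference was −1.76 points by the summed score. With no minimum size, 7 synaptic vesicle genes were higher and 3 lower in both rounds. Their median was 6.31 points in round 1, near the 6.2 of HIF targets, and 1.49 in round 2, against 3.62. Of 15 nitric oxide signalling genes 1 was shifted lower, Pde10a, a phosphodiesterase of cyclic nucleotides, with 53.4 and 55.5 against 64.2 and 78.6.

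Stress programmes gave few shifts. In the NRF2 list 2 of 20 were higher and 0 lower. Nqo1, a quinone reductase, had 93.0 and 73.1 at 4% O2 and 60.2 and 41.5 at 20% O2, and Sod2, the mitochondrial superoxide dismutase, 81.1 and 90.0 against 58.6 and 74.2. For both genes the 4% O2 libraries lay above the 20% O2 libraries without overlap. In the unfolded protein response 0 of 21 were higher and 2 lower, Chac1 and Hsp90b1. Hsp90b1 had 87.5 and 80.5 against 99.5 and 92.9 (mean −12.2 points, −5.08 by the summed score). With no minimum size, 10 genes of this list were higher and 3 lower in both rounds, and its medians were 4.95 and 1.07 points. Among immediate early genes 2 of 19 were higher (Fosb, Jund) and 2 lower (Egr2, Fosl2), where Fosl2 had a mean difference of −19.0 points and −1.98 by the summed score. None of 13 heat shock chaperone genes was shifted. The cell cycle list had 2 of 26 higher (Ccnb1, Mcm7) and 2 lower (Ccne1, Cdc6), and the p53 list 1 of 20 higher (Bcl2l11) and 1 lower (Zmat3, whose mean difference was 5.26 points by the summed score).

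**Figure D4:**
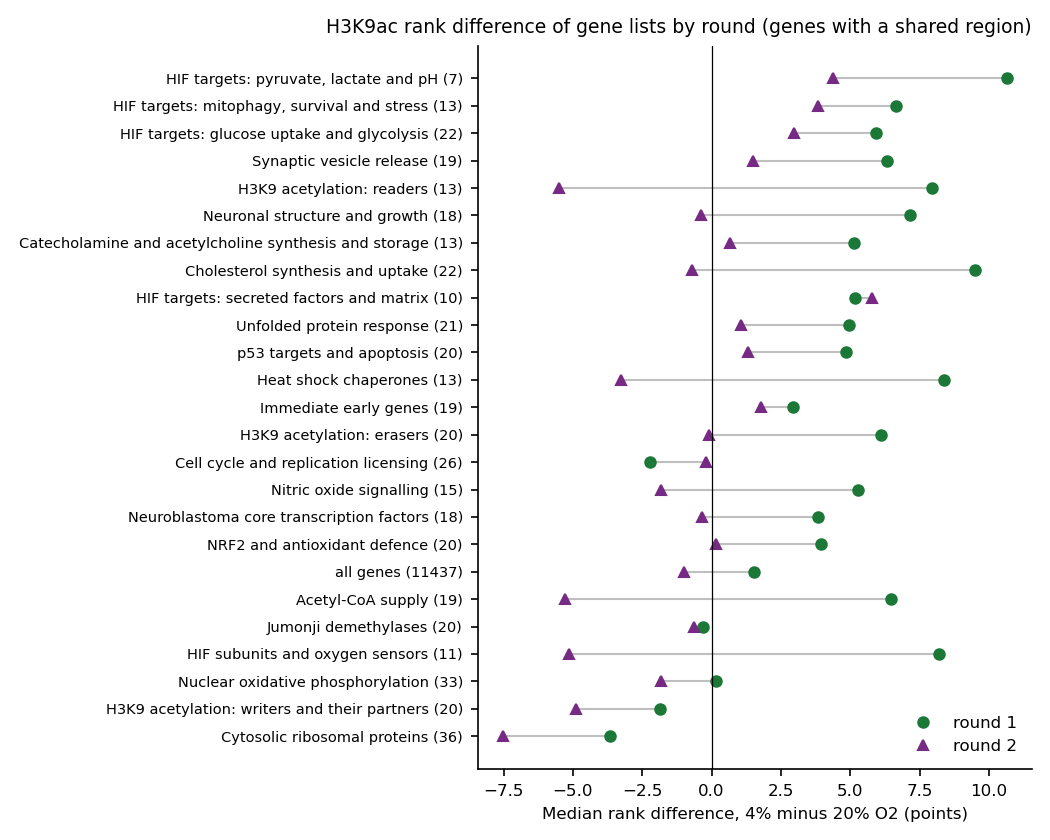
Median rank difference at gene starts, 4% minus 20% O2 in percentile points, for 24 gene lists and all genes, in round 1 (circles) and round 2 (triangles), with the number of genes measured in brackets. The 4 HIF target lists lie right of 0 in both rounds and ribosomal proteins left of 0 in both. They are not alone in this: synaptic vesicle release and the unfolded protein response, among others, also lie right in both rounds. The writers of acetylation, among others, lie left in both. Several lists, the readers of acetylation among them, have opposite signs in the rounds.

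The genes with the largest shift common to both rounds were mostly outside these lists. On the higher side, Selenoo, a mitochondrial selenoprotein, had 53.2 and 82.4 at 4% O2 and 12.7 and 21.4 at 20% O2. Diablo, a mitochondrial protein that releases caspases from their inhibitors, had 50.3 and 74.8 against 6.4 and 36.2. Igfbp7, a secreted binding protein of insulin-like growth factors, had 91.0 and 63.0 against 37.7 and 25.0. All 3 kept the levels apart. Rnf34, a ubiquitin ligase, had 83.1 and 87.2 against 33.8 and 51.2, and Spg21 94.2 and 85.5 against 46.0 and 50.9. Ccdc61, Gipr (mean 39.6 points, 23.6 by the summed score) and the pair Fkbp15 and Slc31a1, which share 1 region between their starts, complete the group with Ccng2 from the HIF list. Adjusted p-values in limma with the round block were 0.118 for Selenoo, 0.151 for Spg21, 0.167 for Igfbp7, 0.21 for Rnf34 and 0.216 for Diablo, and none passed.

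On the lower side, Rnf166 and Ctu2, a gene of transfer RNA thiolation, share a region with 5.4 and 31.7 at 4% O2 and 54.9 and 70.8 at 20% O2. Dph5, an enzyme of diphthamide synthesis on elongation factor 2, had 39.2 and 37.1 against 81.3 and 75.2. In each of these the levels did not overlap. Cdc73, a subunit of the PAF1 complex that travels with elongating polymerase, had 19.1 and 55.8 against 64.1 and 91.9, and Eif3j1, of a translation initiation factor, 31.3 and 54.2 against 68.2 and 90.4 (mean −36.6 points, −15.1 by the summed score). Siah1b, an X-linked ubiquitin ligase, had 42.3 and 37.1 against 88.2 and 75.2. Smpdl3b, Kctd13 and Dtwd1 were also in the group. The smallest adjusted p in limma with the block among these genes was 0.118, for Kctd13 (6.3 and 48.9 against 61.1 and 85.8).

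By place, shared regions inside genes were shifted higher in 11% and lower in 7.93%, and regions outside genes higher in 7.81% and lower in 10.1%. Regions at starts were balanced, with 8.20% higher and 8.04% lower. Of the chromosomes with shared regions, X had the smallest share shifted higher and the largest share shifted lower. Of its 737 shared regions 3.93% were shifted higher and 14.1% lower, against 8.81% and 8.66% of all. The median rank of X regions was 29.1 and 34.4 at 4% O2 and 36.6 and 38.7 at 20% O2, and the median differences were −5.66 and −4.22 points. The same measure at shared X regions of CTCF was 0.184 and −5.48 points, and of the cohesin subunit RAD21 −11.6 and −4.04 points, from libraries of the same cells.

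A length-based reading, added after the ranks had been seen, summed the base pairs under H3K9ac peaks over each gene with 1 kb to either side. It used 13018 genes with a mean of at least 500 bp, on a log2(bp + 500) scale centred on the median gene of each library. Differences of 0.5 or more in both rounds were found for 69 genes higher (0.53%) and 61 lower (0.469%) at 4% O2. limma gave 0 calls without the block (97 genes with an unadjusted p under 0.05) and 0 with it (794 genes), so none of the genes below passed. Genes that overlap share peaks in this measure. The medians of 55 HIF targets were 0.30 and 0.11, against −0.01 and 0.01 for all genes, with Gbe1 and Loxl2 higher and Angptl4 lower. Slc2a1, whose rank differed mostly in round 1, had log2 differences in length of −0.09 in round 1 and 0.99 in round 2.

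Alk, the receptor tyrosine kinase gene activated in a share of neuroblastomas, had less of its length under H3K9ac peaks at 4% O2. Its peaks together covered 22976 and 21803 bp at 4% O2 and 32383 and 30603 bp at 20% O2, with log2 differences of −0.56 and −0.57 (limma with block, adjusted p = 0.815). The 2 libraries of a level lay close together here, although the round 2 lists cover far more of the genome. The rank at the start of Alk had no such order, with 81.1 and 86.8 against 68.3 and 92.6. Ptprt, a receptor tyrosine phosphatase, had 8158 and 3852 bp against 19245 and 8234, and Dab1, of the reelin pathway, 3441 and 3543 against 10698 and 5384. Mitf, a transcription factor of the pigment lineage, had 1767 and 4738 bp against 3624 and 6911.

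On the longer side, Anxa2, annexin A2, had 4514 and 5664 bp at 4% O2 and 990 and 2662 bp at 20% O2, with log2 differences of 1.68 and 0.87. Igf2r, the receptor that clears IGF2, had 13831 and 10135 bp against 7936 and 5088. Zfp395 had 8042 and 16661 against 3571 and 9552, and Mllt3, which encodes the YEATS-domain reader AF9, 3514 and 2530 against 1694 and 1155. Zfand2a, already named for a region at its start, had 1230 and 4970 against 382 and 2560. In Anxa2, Igf2r and Mllt3 the levels did not overlap, whereas Zfp395 and Zfand2a overlapped across rounds.

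**Figure D5:**
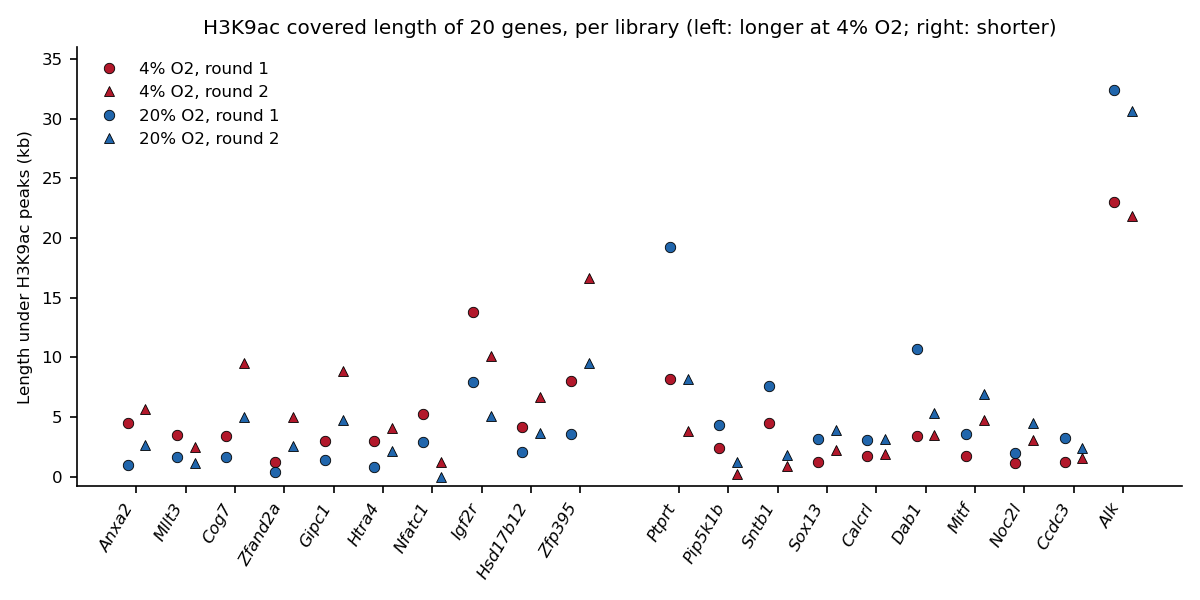
Length under H3K9ac peaks, in kb, over 20 genes with 1 kb to either side, in each library; red is 4% O2, blue 20% O2, circles round 1, triangles round 2. Within each round the red point lies above the blue one for the 10 genes at left and below it for the 10 at right, as the rule that chose them requires, and Alk has the largest sum at 20% O2.

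Peak summits were used for round 2. Of summits on chromosomes with annotated gene starts of known strand, 24.1% at 4% O2 and 25.4% at 20% O2 lay within 2 kb of the nearest such start. Of these, 56.8% and 58.5% were downstream of it. The median signed distance was 178 bp downstream at 4% and 172 bp at 20% O2, but the summits clustered on both sides of the start. The bin centred at −250 bp held 8.82% of them at 4% and 9.35% at 20% O2, and that at 250 bp 8.71% and 9.83%. Next to the start, the bin at −50 bp held 0.867% and 1.07%. Downstream summits had a median of 501 bp at 4% and 409 bp at 20% O2, and upstream summits −454.5 and −419 bp. With 1 library per level these distances have no replicate check.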

How the data were processed

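Peak lists of 4 H3K9ac libraries were analysed on chromosomes 1 to 19, X and Y of mm10. The submitters' processing notes name BWA, Picard, SICER and MACS2, with versions not given in the sources used here. H3K9ac, CTCF and RAD21 peaks were called with MACS2 and polymerase islands with SICER, per the file headers. The unnamed score of a deposited MACS2 peak was taken to be a −log10 q-value because its values begin just above 2 (a q threshold of 0.01). Deposited SICER islands carry a read count each, of which no use was made here beyond the islands' positions. Each list belongs to 1 library. The replicate 2 list of each level is deposited beside replicate 1 and was matched to replicate 2 by its summits: all 92649 and 84395 scores were equal.

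Peaks overlapping by at least 1 bp were merged into regions, and each region took the highest score per library. Ranks were turned into normal scores and compared with limma 3.58.1 in R 4.3.3, trend on, with Benjamini-Hochberg adjustment over all shared regions. The rest ran in Python 3.11.15. limma was tested on simulated data: without the block it recovered none of the planted shifts, and with it most of the larger ones and few of the small ones, with some false calls. The simulated spread between rounds was wider than the real one. The replicate number marks a flow cell, per the file headers, and the 2 libraries of a round deviated together from their group means (correlation 0.494), so values with round as a block are given. Gene starts came from the RefSeq promoter table of GRCm38.p6 (the build of mm10) for 17491 genes; for 4392 others, without strand, both ends were used with windows of 1 kb. Each gene is represented by its start region of highest mean rank.

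Named genes are up to 3 per list with the largest mean rank difference of 1 direction in both rounds, the 10 highest and 10 lowest genes by the smaller round difference, the 5 strongest oxygen-specific regions by place, all HIF subunits and acetylation enzymes, and Nos1. Members and lists were chosen with earlier results of these data known. Others were chosen after their values were seen, including all genes of the covered-length reading and every shifted list member. A few named genes are not reported here.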

Additional observations from a re-analysis of the deposited data

How the results depend on the processing

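With peaks of score 5 or more, the ratio of list length, 4% to 20% O2, was 1.04 instead of 1.10. Covered length had ratios of 1.05 and 1.13 within rounds (replicate block), but leaving out a library set round 1 against round 2: the ratio was 0.895 without 4% O2 replicate 2 and 0.955 without 20% O2 replicate 1, on the other side of 1, and ran from 0.895 to 1.30 over the 4 libraries. Leaving out 1 library ranged list length from 1.02 to 1.20.

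Oxygen-specific regions numbered 779 at 4% and 1024 at 20% O2 among the 50000 highest peaks of each library, so the order of the levels turned. They numbered 635 and 613 when peaks within 500 bp were merged. With 1 library left out, which leaves a level with 1 list and so raises the counts by construction, they ran from 3608 to 20468 and from 2167 to 10213: 20468 and 2167 without 4% O2 replicate 1, 8433 and 4756 without 4% O2 replicate 2, 3608 and 10213 without 20% O2 replicate 1, 5619 and 7326 without 20% O2 replicate 2. Of the 4% O2 regions, 53.6% lay inside and 27.9% outside genes with a window of 2.5 kb, and 54.2% inside among the 50000 highest peaks. Of the 20% O2 regions, 33.1% lay inside and 55.4% outside among those peaks.

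In limma, the replicate block gave 14 higher and 19 lower regions where the fit without it gave 0. Leaving out 1 library gave 0 to 2 higher and 0 to 1 lower, with the lone library assumed to vary like the others. At 5 points 6310 regions were shifted higher and 6282 lower, and at 20 points 900 and 852. The summed score gave HIF targets 8 higher and 0 lower. Of 107 genes, 8 changed direction by the summed score: Bag3 (5.01 points), Gap43 (−0.54), Hdac11 (−1.87), Kat5 (12.2), Mcm4 (5.45), Sox4 (3.70), Unc13a (−1.76) and Zmat3 (5.26). Of those that kept it, 16 had a difference over 1.5 times smaller, Gata2 and Fosl2 among them, and 4 one over 1.5 times larger. The cause was not tested.

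Alternatives for covered length per gene and for chromosome X were chosen after seeing the data. A pseudocount of 100 bp gave 113 genes higher and 118 lower, one of 1000 bp 36 and 26, and no minimum 85 and 130, with 0 limma calls each and with the replicate block. The X median of −5.34 points was −4.03 by the summed score and ran from −5.66 to −4.22 by round.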
